A study of Saccharomyces cerevisiae with 8 samples.

Results

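The comparison asked how the transcriptional response of budding yeast to glycine differed between a strain without BAS2 and its parent BY4741. BAS2 is another name of PHO2 (YDL106C). It rests on 4 of the 8 spotted arrays of the study, taken by their titles: replicates 1 and 2 of the bas2 deletion strain and replicates 1 and 3 of BY4741. Each array compared RNA of 1 strain from cultures given 10 mM glycine in minimal medium (channel 1) with RNA of that strain without added glycine (channel 2), harvested in early log phase. The other 4 arrays, of bas1 (2), gcn4 (1) and shm2 (1) deletion strains, were in the fit and are not described. Of these only the bas1 pair added to the estimate of the spread between arrays, since a strain with 1 array adds none.

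BY4741 is the MATa parent of the yeast deletion collection, and the bas2 strain, Y03803, comes from that collection, so both carry the parent's missing HIS3, LEU2, MET17 and URA3 functions. The labels name 1 strain number for the bas2 arrays, and nothing says that the arrays came from separate cultures. The title and description of bas2 replicate 1 give bas2, but its source name gives BY4741, so list medians are also given without it. The title of BY4741 replicate 3 also holds the gene name zap1, and that array was kept in BY4741 because its source name gives that strain.

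Pho2 is a homeodomain transcription factor that binds DNA weakly on its own and acts with partners. With Bas1, a Myb-type factor, it activates the ADE genes of purine synthesis, some histidine genes and genes of glycine and one-carbon metabolism. With Pho4 it activates phosphatase and phosphate uptake genes when phosphate is scarce. Glycine is broken down in mitochondria by the glycine cleavage system, which passes a one-carbon unit to tetrahydrofolate, and those units are used to build purines.

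Values are log2 channel ratios, averaged over the spots of a gene and centred on the median gene of each array, so 0 is the middle gene. The sources used here do not state which channel is the numerator. The glycine cleavage genes, which are known to be induced by glycine, had negative values in both strains, so a negative value is likely a higher level with glycine. Every sign below stands as deposited, and "higher in bas2" means a higher value, not more transcript. Over spots, the 6 pairs among these 4 arrays correlated between 0.023 (BY4741 replicate 1 and bas2 replicate 2) and 0.423 (BY4741 replicate 3 and bas2 replicate 1), with none below 0. The BY4741 pair correlated at 0.422 but the bas2 pair at only 0.112. Bas2 replicate 1 was thus closer to BY4741 replicate 3 than to the other bas2 array. One of these arrays, BY4741 replicate 1, correlated at -0.304 with a bas1 array, so directions are not settled for single arrays.

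Of 5539 genes with spots, 4874 had a value on all 4 arrays. Of 12800 spots, BY4741 replicates 1 and 3 lacked a value for 99 and 80, and bas2 replicates 1 and 2 for 45 and 2302. Spots of 1 gene on 1 array repeated closely, with a median SD of 0.035 to 0.121 on the 4 arrays. Arrays of 1 strain did not: the median absolute difference between arrays was 0.53 for the BY4741 pair and 0.46 for the bas2 pair, while bas2 replicate 1 differed from BY4741 replicate 3 by only 0.27. The SD over genes was 0.97 and 0.38 on BY4741 replicates 1 and 3 and 0.59 and 1.22 on bas2 replicates 1 and 2. Channel signals were not used here, so the signal behind a ratio is unknown.

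The difference bas2 minus BY4741 was tested for each gene with limma over all 8 arrays, with Benjamini-Hochberg adjustment over the 4874 genes. No gene passed at 0.05 (0 of 4874, or 0%), the smallest adjusted p was 0.853, and 92 genes had an unadjusted p under 0.05. The median SE of a difference was 0.56. Because 2 arrays against 2 cannot give a two-sided exact permutation p under 0.333, genes are also described by whether the arrays of the strains overlapped. Both bas2 arrays lay above both BY4741 arrays for 965 genes (19.8%) and below them for 1013 (20.8%). The nearer arrays were at least 1 apart for 25 genes higher in bas2 (0.513%) and 27 genes lower (0.554%). These counts were 6 and 40 without centring, and 59 and 109 with the arrays scaled to a common median absolute deviation. Without centring the median difference over all genes was -0.64 in place of -0.08, so every difference below is relative to the middle gene.

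The deleted gene gives no check of the labels here, since both channels of an array hold RNA of 1 strain. PHO2 had values on every array: 0.48 and -0.32 in BY4741, and -1.04 and -0.16 on bas2 replicates 1 and 2. URA3, which BY4741 and its descendants lack, stood at -1.90 and -1.22 in BY4741 and at -0.05 and 3.36 in bas2. LEU2, also lacking, stood at -1.24 and -0.29 in BY4741 and at 0.33 and -0.09 in bas2. Spots of genes that these strains lack therefore carried ratios up to 3.36 in size, which is larger than most differences described here.

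Genes that break down glycine kept their low ratios in the bas2 strain. GCV1 (YDR019C), the aminomethyltransferase of the cleavage system, stood at -6.27 and -5.27 on BY4741 replicates 1 and 3 and at -5.45 on bas2 replicate 1, with no value on replicate 2. GCV3 (YAL044C), the lipoyl-carrying H protein, stood at -2.76 and -2.73 in BY4741 and at -3.48 and -3.56 in bas2. Its bas2 arrays were both lower by a small margin, with a difference of -0.78 ± 0.42 (SE, n = 2 arrays a strain, limma adjusted p = 0.853). The direction depends on scaling, since the GCV3 difference was 0.22 with a common median absolute deviation. GCV2 (YMR189W), the glycine decarboxylase itself, stood at -1.65 and -0.64 in BY4741 and at -3.72 and -2.29 in bas2. Both bas2 arrays of GCV2 lay below both BY4741 arrays, and its difference was -1.86 ± 0.70 with a 95% interval up to -0.12 (adjusted p = 0.853). LPD1 (YFL018C), the dihydrolipoamide dehydrogenase that the system shares with other enzymes, stayed near the middle, between -0.56 and -0.12 on the 4 arrays.

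The enzymes that interconvert serine, glycine and folate-bound one-carbon units did not stand together. SHM2 (YLR058C), the cytosolic serine hydroxymethyltransferase, stood at -3.08 and -1.47 in BY4741 and at -3.73 and -3.00 in bas2, and the strains overlapped. MTD1 (YKR080W), a cytosolic methylenetetrahydrofolate dehydrogenase, stood at -0.29 and -1.17 in BY4741 and at -1.93 and -4.46 in bas2. Its difference was -2.46 ± 0.97 (adjusted p = 0.853), and at least 1 of the arrays had a single spot with a value for it. SHM1 (YBR263W), the mitochondrial counterpart of SHM2, went the other way: -1.46 and -0.42 in BY4741 against 0.17 and 0.16 in bas2, a difference of 1.10 ± 0.51. ADE3 (YGR204W), the cytosolic trifunctional folate enzyme, was at -2.73 and -0.80 in BY4741 and at -0.46 and -0.59 in bas2. The ADE3 difference of 1.24 ± 0.70 came mostly from BY4741 replicate 1, since the nearer arrays were only 0.20 apart.

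Of 20 one-carbon and folate genes, 18 had a value on all 4 arrays, and 0 passed limma's test. Both bas2 arrays were higher for 3 (16.7%: SHM1, ADE3 and FOL1, a folate synthesis enzyme) and lower for 6 (33.3%). The 6 were GCV2, GCV3, LPD1, MTD1, CDC21, the thymidylate synthase, and FOL3, the dihydrofolate synthetase. Shares over all genes were 19.8% and 20.8%. The median difference of the list was -0.18, against -0.08 over all genes. It was -0.74 without centring and -0.04 with a common median absolute deviation. Without 1 array it was -0.23 (bas2 replicate 1), -0.04 (bas2 replicate 2), -0.05 (BY4741 replicate 1) or -0.35 (BY4741 replicate 3). FOL2, MET7 and FAU1 differed by -0.11, -0.17 and -0.20, within their SE of 0.44 to 0.50.

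**Figure D1:**
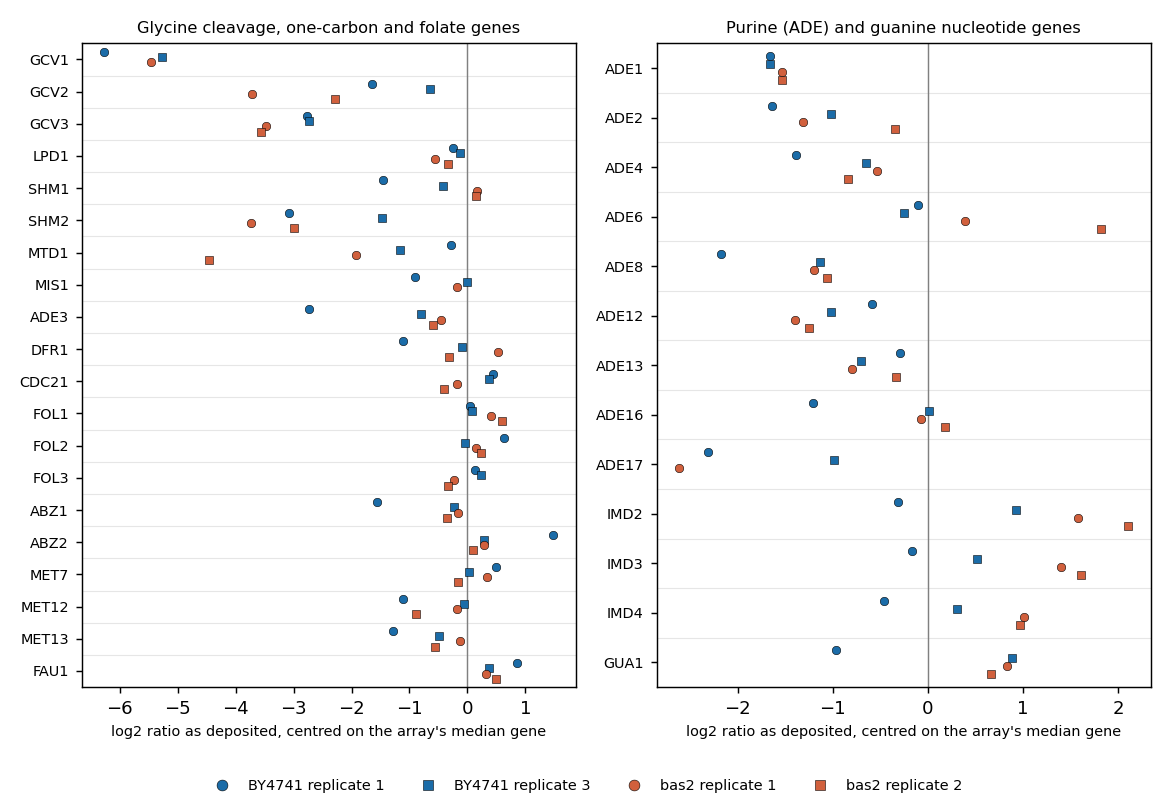
Centred log2 ratio (horizontal axis) of each one-carbon and folate gene (left) and each ADE and guanine nucleotide gene (right) on the 4 arrays; circles and squares are single arrays, BY4741 in blue and bas2 in orange. GCV1, GCV3 and SHM2 lie far to the left in both strains, ADE1 lies between -1.67 and -1.53 on all arrays, and the bas2 arrays of IMD2, IMD3 and IMD4 lie to the right of both BY4741 arrays.

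Most ADE genes, the classical targets of the Bas1 and Pho2 pair, had negative ratios with and without BAS2. ADE1 (YAR015W), which encodes SAICAR synthetase, stood at -1.66 and -1.67 in BY4741 and at -1.54 and -1.53 in bas2. Its difference was 0.13 ± 0.81, with a 95% interval up to 2.14. The interval is wide although the 4 arrays lay close together, because the spread in the fit also comes from the bas1 arrays. ADE8 (YDR408C), the GAR transformylase, stood at -2.18 and -1.14 in BY4741 and at -1.20 and -1.06 in bas2. ADE2 (YOR128C), the AIR carboxylase, stood at -1.65 and -1.02 against -1.31 and -0.35, and ADE4 (YMR300C), the first enzyme of the pathway, at -1.39 and -0.66 against -0.53 and -0.84. The strains overlapped for ADE2, ADE4 and ADE8. ADE17 (YMR120C), an AICAR transformylase, stood at -2.32 and -0.98 in BY4741 and at -2.62 on bas2 replicate 1, with no value on replicate 2. Both BY4741 arrays and bas2 replicate 1 therefore had ADE17 below the middle gene.

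Departures from that pattern were few. ADE6 (YGR061C), the FGAM synthetase, stood at -0.11 and -0.25 in BY4741 and at 0.39 and 1.82 in bas2, a difference of 1.28 ± 0.63 (adjusted p = 0.853). At least 1 array had a single spot with a value for ADE6. ADE12 (YNL220W), which starts the adenine branch, was lower in bas2, at -1.40 and -1.26 against -0.59 and -1.02. ADE13 and ADE16 overlapped between the strains. Of the 8 ADE genes of this list with 4 values, both bas2 arrays were higher for 2 (ADE1 and ADE6) and lower for 1 (ADE12), which is 25% and 12.5% against 19.8% and 20.8% of all genes, and 0 passed limma's test. Without centring the ADE1 difference was -0.43. The list's median difference was 0.42, with 0.39 without bas2 replicate 1, 0.08 without BY4741 replicate 1 and -0.14 without centring, so its sign depends on the centring.

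The guanine branch differed more evenly. IMD2 (YHR216W), IMD3 (YLR432W) and IMD4 (YML056C) encode IMP dehydrogenase, the first step towards guanine nucleotides. IMD3 stood at -0.17 and 0.52 in BY4741 and at 1.40 and 1.62 in bas2. IMD2 stood at -0.32 and 0.92 against 1.58 and 2.11, and IMD4 at -0.46 and 0.30 against 1.01 and 0.97. For all 3 genes both bas2 arrays lay above both BY4741 arrays. Their differences were 1.54 ± 0.61 for IMD2, 1.33 ± 0.48 for IMD3 and 1.07 ± 0.47 for IMD4 (limma adjusted p = 0.853 each). GUA1 (YMR217W), the GMP synthase, overlapped, at -0.97 and 0.88 in BY4741 and 0.83 and 0.67 in bas2. The median difference of these 4 genes was 1.20, and it was 1.25 without bas2 replicate 1 and 0.64 without centring. The IMD genes are close in sequence, and spotted DNA may not tell them apart, so the 3 are not separate observations.

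Of 7 histidine genes, both bas2 arrays were higher for 3 (42.9%: HIS1, HIS3 and HIS7) and lower for 0, against 19.8% and 20.8% of all genes, and none passed limma's test. The nearer arrays of these 3 were only 0.04 (HIS1), 0.001 (HIS3) and 0.06 (HIS7) apart. HIS3 is also a gene whose function both strains lack. The widest differences, 0.92 ± 0.70 for HIS6 and -0.75 ± 0.76 for HIS5, belonged to genes whose strains overlapped. The list's median difference was 0.29, with 0.14 without bas2 replicate 1, 0.09 without BY4741 replicate 1, 0.74 with a common median absolute deviation and -0.27 without centring. HIS4 (YCL030C), a known Bas1 and Pho2 target, stood at -1.31 and -0.92 in BY4741 and at -0.79 and -2.01 in bas2, and HIS7 (YBR248C), another such target, at -0.20 and -0.64 against -0.02 and -0.14. The bas2 arrays of HIS4 lay on either side of the BY4741 arrays, whereas those of HIS7 lay 0.06 above the nearer one. GLN1 (YPR035W), glutamine synthetase, was positive on all 4 arrays (0.75 and 0.17 in BY4741, 0.25 and 0.74 in bas2). Of 15 genes known as Bas1 and Pho2 targets with 4 values, 4 were higher in bas2 on both arrays and 4 lower (26.7% each, against 19.8% and 20.8% of all genes). Their median difference was 0.04, with 0.16 without bas2 replicate 1 and -0.52 without centring.

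Among genes that make or use serine and glycine outside the cleavage system, 6 of 7 had a negative difference, but for only 3 did both bas2 arrays lie below both BY4741 arrays. AGX1 (YFL030W), the alanine-glyoxylate aminotransferase that makes glycine, stood at -0.67 and -0.54 in BY4741 and at -1.26 and -2.33 in bas2, a difference of -1.19 ± 0.55. CHA1 (YCL064C), a serine and threonine deaminase, stood at -0.56 and -0.45 in BY4741 and at -0.49 and -3.34 in bas2, so that its low mean came from replicate 2 alone. GLY1 (YEL046C), the threonine aldolase that makes glycine from threonine, was the exception, with a single spot on at least 1 array. It stood at -1.10 and 0.01 in BY4741 and at 1.02 and 1.14 in bas2, with arrays 1.02 apart and a difference of 1.63 ± 0.51 (limma adjusted p = 0.853). SER3 (YER081W), the phosphoglycerate dehydrogenase that opens serine synthesis, overlapped at 2.04 and 0.96 against 1.23 and 1.73. Of the 7 genes, 1 was higher and 3 lower in bas2 on both arrays (GLY1 against AGX1, SER1 and SER2), or 14.3% and 42.9% against 19.8% and 20.8% of all genes. Over the list the median difference was -0.35, with -0.50 without bas2 replicate 1, -0.15 without BY4741 replicate 1, -0.72 without BY4741 replicate 3 and -0.91 without centring.

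Genes that Pho2 is known to activate with Pho4 stood close to the middle in most cases. PHO84 (YML123C), the high-affinity phosphate transporter, stood at -0.66 and -0.72 in BY4741 and at 0.12 and 0.29 in bas2. VTC4 (YJL012C), the polyphosphate polymerase, stood at -0.92 and -0.46 against 0.22 and 0.31, and PHO5 (YBR093C), the secreted acid phosphatase, at -1.21 and -0.39 against 0.14 and 0.05. These 3 genes had negative values on both BY4741 arrays and positive ones on both bas2 arrays, with differences of 0.90 ± 0.43, 0.96 ± 0.41 and 0.90 ± 0.48. None passed limma's test (adjusted p = 0.853 each). The list's other VTC genes did not follow VTC4. The strains overlapped for VTC1, VTC2 and VTC3, with differences of 0.31 ± 0.64, -0.62 ± 0.59 and -0.78 ± 0.64.

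The highest values of the phosphate list, for GIT1 and SPL2, came from bas2 replicate 2 alone. SPL2 (YHR136C), a small protein that restrains low-affinity phosphate uptake, stood at -3.87 and -2.70 in BY4741, at -2.15 on bas2 replicate 1 and at 3.48 on replicate 2. GIT1 (YCR098C), a glycerophosphoinositol transporter, stood at -0.76 and -0.23 in BY4741, at -0.28 on bas2 replicate 1 and at 5.91 on replicate 2. For both genes bas2 replicate 1 was near BY4741 and replicate 2 far from every other array. Wide values were not limited to that array. PHM8 stood at 2.88 and -0.72 on BY4741 replicates 1 and 3 and at -1.76 on bas2 replicate 1, with no value on replicate 2. PHO11 and PHO12, a nearly identical pair of acid phosphatase genes, stood at -2.62 and 0.03 on bas2 replicate 2 while lying between -0.14 and 0.39 on the other arrays. Such a gap between near copies on 1 array is as large as the differences listed above.

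Of 17 phosphate genes, 16 had 4 values. Both bas2 arrays were higher for 6 (37.5%: PHO5, PHO84, PHO89, PHO86, SPL2 and VTC4) and lower for 1 (PHO81, an inhibitor of the Pho80-Pho85 kinase), against 19.8% and 20.8% of all genes. Their median difference was 0.31, with 0.33 without bas2 replicate 1 but -0.25 without centring. Among transporters and regulators, the low-affinity transporter genes PHO87 and PHO90 and the vacuolar transporter gene PHO91 were higher in bas2 on both arrays, by 0.94 ± 0.55, 0.66 ± 0.47 and 1.35 ± 0.67. These were 3 of 7 genes of that list (42.9%, against 19.8% of all genes), and 0 were lower on both arrays. PHO4, which encodes the partner of Pho2, overlapped between the strains. The list's median difference of 0.50 was 0.18 without bas2 replicate 1, 0.06 without BY4741 replicate 1, 1.08 without BY4741 replicate 3 and -0.06 without centring.

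**Figure D2:**
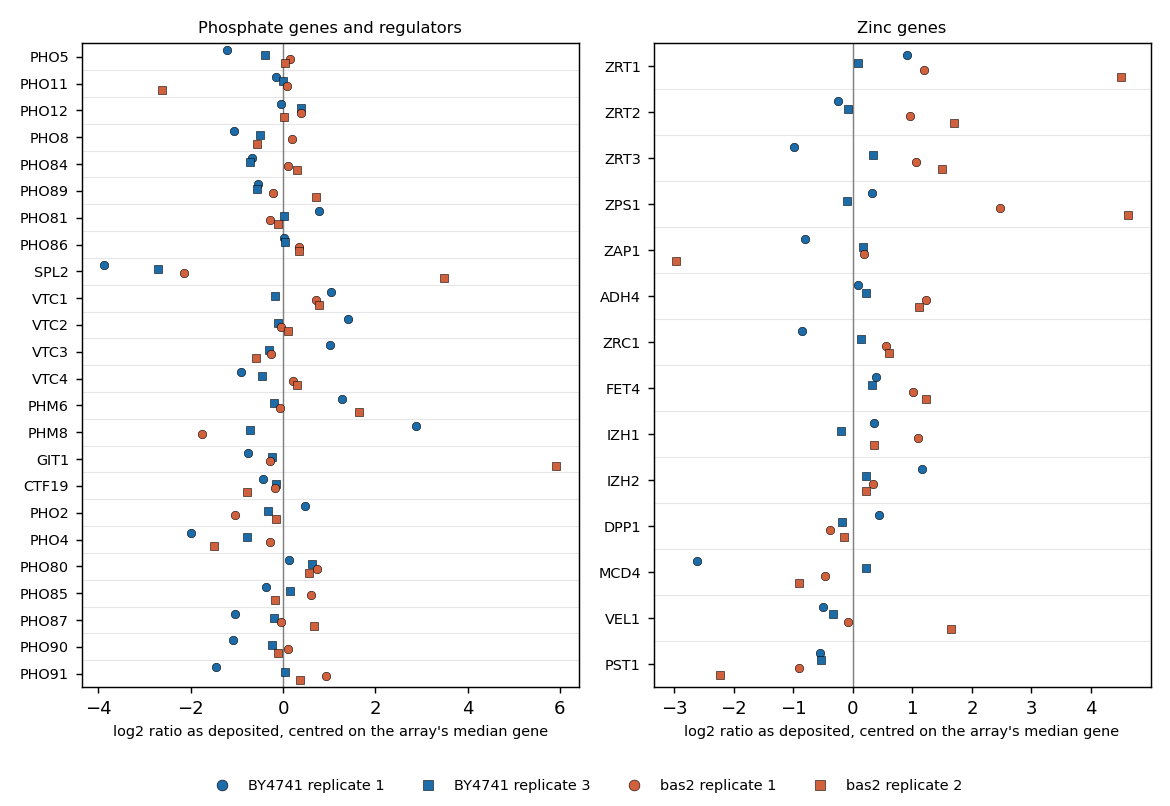
Centred log2 ratio (horizontal axis) of phosphate genes and their regulators (left) and zinc genes (right) on the 4 arrays, with BY4741 in blue and bas2 in orange. Bas2 replicate 2 lies alone for SPL2 (3.48) and GIT1 (5.91), whereas both bas2 arrays of ZPS1, ZRT2 and ADH4 lie to the right of both BY4741 arrays.

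Many zinc genes stood higher in bas2. ZPS1 (YOL154W), a zinc-regulated cell wall protein, stood at 0.33 and -0.09 in BY4741 and at 2.48 and 4.62 in bas2, with a difference of 3.43 ± 1.21. At least 1 array had a single spot with a value for ZPS1. ZRT2 (YLR130C), the low-affinity zinc transporter, stood at -0.25 and -0.08 against 0.97 and 1.70, and ADH4 (YGL256W), an alcohol dehydrogenase made in low zinc, at 0.08 and 0.23 against 1.23 and 1.11. ZRT3 (YKL175W), which releases zinc from the vacuole, stood at -0.99 and 0.33 against 1.06 and 1.51. The nearer arrays were 2.15 apart for ZPS1, 1.04 for ZRT2, 0.88 for ADH4 and 0.72 for ZRT3, and 0 of the 14 genes passed limma's test (adjusted p = 0.853 for these 4).

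ZRT1 (YGL255W), the high-affinity transporter, stood at 0.90 and 0.08 in BY4741 and at 1.19 on bas2 replicate 1 and 4.50 on replicate 2, so its mean leans on 1 array. ZAP1, the zinc-responsive activator itself, stood at -0.80 and 0.17 in BY4741 and at 0.19 and -2.97 in bas2. On BY4741 replicate 3, whose title holds zap1, ZAP1 was close to the middle. That value cannot check the title, since both channels of an array hold RNA of 1 strain. Of 14 zinc genes, both bas2 arrays were higher for 8 (57.1%) and lower for 1 (PST1), against 19.8% and 20.8% of all genes. The list's median difference was 0.85. It was 0.91 without bas2 replicate 1, 1.18 without BY4741 replicate 3 and 0.29 without centring.

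Many iron genes stood higher in bas2, and a few were high in both strains. The list's median was 0.07 and 0.56 on the BY4741 arrays and 0.95 and 0.69 on the bas2 arrays. ARN2 (YHL047C), a siderophore transporter, stood at 0.25 and 0.31 in BY4741 and at 2.13 and 1.85 in bas2. Its difference of 1.71 ± 0.39 had one of the smaller errors in the comparison, and its arrays were 1.54 apart (adjusted p = 0.853). SMF3 (YLR034C), a vacuolar iron transporter, stood at -0.55 and 0.04 against 1.12 and 1.35, and FRE6 (YLL051C), a vacuolar iron reductase, at 0.09 and 0.04 against 0.99 and 0.97. In contrast, FIT2 (YOR382W), a mannoprotein that retains siderophores in the cell wall, overlapped at 2.60 and 3.93 against 3.84 and 4.76. TIS11 (YLR136C), which degrades mRNAs of iron-using proteins in low iron, overlapped as well, between 2.11 and 2.96 on the 4 arrays.

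Of 22 iron genes with 4 values, both bas2 arrays were higher for 11 (50%) and lower for 1, HMX1, the haem oxygenase, against 19.8% and 20.8% of all genes. The median difference was 0.68, with 0.56 without bas2 replicate 1. It was 0.21 without BY4741 replicate 1, 0.12 without centring and 0.03 with a common median absolute deviation.

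Many general stress genes stood lower in bas2. DCS2 (YOR173W), a stress-induced regulator of mRNA decapping, stood at -0.66 and -0.92 in BY4741 and at -2.17 and -4.02 in bas2. PNC1 (YGL037C), the nicotinamidase, stood at 0.39 and -0.78 against -2.15 and -3.20, with a single spot on at least 1 array. HSP104 (YLL026W), the protein disaggregase, stood at -0.30 and -0.23 against -1.93 and -1.32, and HSP42 (YDR171W), a small heat shock protein, at 0.60 and 0.12 against -0.88 and -1.06. For each of these 4 genes the bas2 arrays lay at least 1 below the BY4741 arrays. Their differences were -2.30 ± 0.74, -2.48 ± 0.67, -1.36 ± 0.50 and -1.33 ± 0.45, and none passed limma's test (adjusted p = 0.853 each).

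Of 40 stress genes, 31 had 4 values. Both bas2 arrays were lower for 12 (38.7%) and higher for 1 (PAI3, a protease inhibitor), against 20.8% and 19.8% of all genes. The list's median stood at -0.36 and -0.40 on the BY4741 arrays and at -1.17 and -1.09 on the bas2 arrays. The median difference was -0.62, with -0.43 without bas2 replicate 1 and -1.18 without centring. HSP12 (YFL014W), a membrane-protecting stress protein, reached -4.89 on bas2 replicate 1, but it stood at 0.06 and -2.98 in BY4741 and had no value on bas2 replicate 2. XBP1 and RTN2, also in the list, stood at -1.16 and -1.30 on bas2 replicate 1 and at 3.08 and 3.87 on replicate 2, so the stress genes did not all lie low on that array.

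Mitochondrial ribosomal protein genes, which encode the ribosome inside mitochondria, stood lower in bas2. Their median was 0.53 and 0.06 on the BY4741 arrays and -0.39 and -0.31 on the bas2 arrays. Of 61 genes with 4 values, both bas2 arrays were lower for 40 (65.6%) and higher for 4 (6.56%: MRP1, MRP2, MRP4 and MRPL19), against 20.8% and 19.8% of all genes. The median difference was -0.59, with -0.54 without bas2 replicate 1, -0.40 without BY4741 replicate 1 and -1.14 without centring. MRPL50 (YNR022C) stood at 0.62 and 0.49 in BY4741 and at -0.85 and -1.73 in bas2, a difference of -1.84 ± 0.51. RSM18 (YER050C), RSM10 and MRPL11 had differences of -1.96 ± 0.76, -1.73 ± 0.57 and -1.29 ± 0.47. None of the 61 genes passed limma's test, and 4 had an unadjusted limma p under 0.05, as did 92 of all 4874 genes. Arrays of 1 strain could also lie far apart, as for RSM18 at 2.01 and 0.10 in BY4741.

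Cytosolic ribosomal protein genes gave no such order. Their median was 1.06 and 0.28 on BY4741 replicates 1 and 3 and 0.03 and 0.65 on bas2 replicates 1 and 2. Of 132 genes, both bas2 arrays were higher for 12 (9.09%) and lower for 9 (6.82%), both below the shares over all genes. Titles of the arrays end either in a form of "steady" (BY4741 replicate 1 and bas2 replicate 1) or in "ss" (the other pair), and what the endings mean is not stated. Their median difference was -0.33, and -0.04 without bas2 replicate 1. Within these pairs it was -0.95 for the first and 0.31 for the second. The mitochondrial list kept 1 sign in both pairs, at -0.78 and -0.37, as did the stress list (-1.24 and -0.56), the zinc list (0.87 and 0.71) and the guanine list (1.68 and 0.88). Most lists did so, among them the one-carbon list (-0.34 and -0.20) and the purine list (0.42 and 0.15), so this does not set these lists apart. The histidine list (0.20 and -0.08) was among the few that changed sign.

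**Figure D3:**
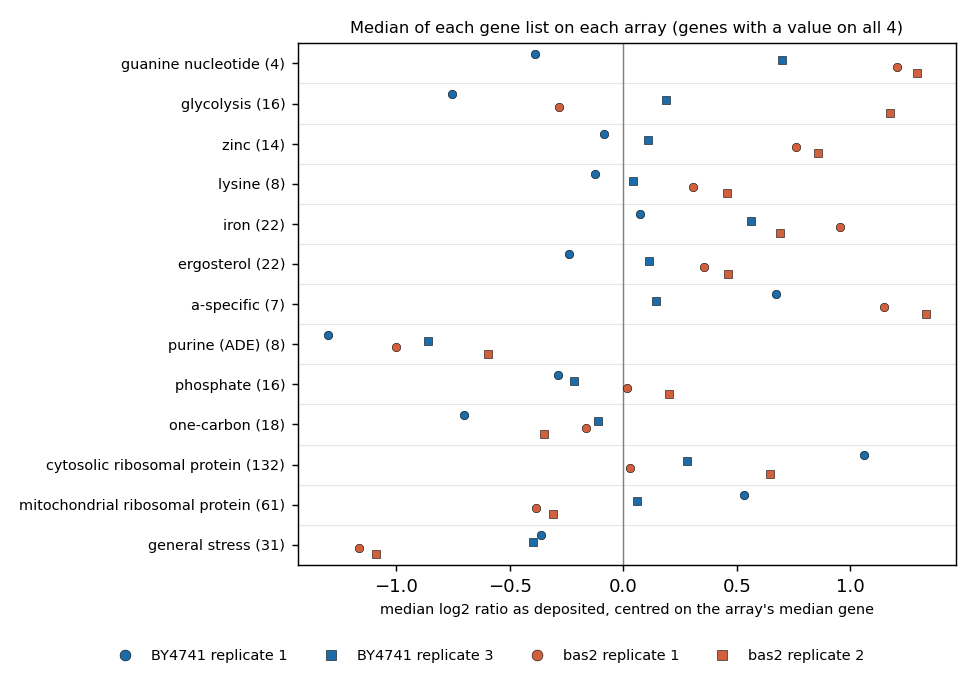
Median centred log2 ratio (horizontal axis) of 13 gene lists on each of the 4 arrays, over the genes with a value on all 4, whose number stands in brackets; BY4741 is blue and bas2 orange. Stress and mitochondrial ribosomal protein medians lie further left on both bas2 arrays (stress at -1.17 and -1.09), zinc medians further right, and cytosolic ribosomal protein medians are interleaved.

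Ergosterol and lysine genes were higher in bas2 on both arrays more often than the 19.8% of all genes, and glycolysis genes at a share near it. ERG1 (YGR175C), the squalene epoxidase, stood at -0.52 and -0.42 in BY4741 and at 0.60 and 0.47 in bas2. Of 22 ergosterol genes, both bas2 arrays were higher for 11 (50%) and lower for 2 (9.09%: ERG24 and ERG27), against 19.8% and 20.8% of all genes. Their median difference was 0.49, with 0.30 without bas2 replicate 1 and -0.07 without centring. LYS4 (YDR234W), the homoaconitase of lysine synthesis, stood at -1.86 and -0.48 against 0.15 and -0.03. Of 8 lysine genes, 5 were higher in bas2 on both arrays (62.5%) and 1 lower (12.5%: LYS12). Their median difference was 0.76, with 0.73 without bas2 replicate 1, 0.45 without BY4741 replicate 1 and 0.20 without centring. All 16 glycolysis genes had positive differences, from 0.27 to 1.38, but for only 4 of them (25%: HXK2, PGI1, PFK1 and PFK2) did the arrays not overlap. The glycolysis medians were -0.75 and 0.19 in BY4741 and -0.28 and 1.17 in bas2, so the arrays interleaved. The median difference of 0.91 was 1.48 without bas2 replicate 1, 0.17 without bas2 replicate 2, 0.36 without BY4741 replicate 1, 1.39 without BY4741 replicate 3 and 0.35 without centring.

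Genes specific to a cells, the mating type of BY4741, also stood higher in bas2. BAR1 (YIL015W), a secreted protease that degrades alpha factor, stood at -0.08 and 0.82 in BY4741 and at 1.74 and 1.65 in bas2. Of 7 such genes, 5 were higher in bas2 on both arrays (71.4%, against 19.8% of all genes) and 0 lower (against 20.8%). Their median difference was 0.52, with 0.57 without bas2 replicate 1 and -0.04 without centring. SAG1 (YJR004C), an agglutinin of alpha cells that an a strain should not express, stood at -1.08 and 0.20 in BY4741 and at 1.08 and 0.98 in bas2. On bas2 replicate 1 the other alpha-specific genes stood at 0.71 (STE3), 1.00 (MF(ALPHA)1) and 1.32 (MF(ALPHA)2), above both BY4741 arrays. Of the 4 alpha-specific genes, only SAG1 had a value on all 4 arrays. The values of the others in bas2 are given for replicate 1 alone, whose source name gives BY4741. The a-specific genes and SAG1 thus stood higher in bas2, and their part in the other differences was not tested. In these cultures, fewer cells of a kind and less RNA per cell cannot be told apart.

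The genes with the widest gap between strains, among those with at least 2 spots on every array, fell under several functions. Higher in bas2 were BSC1, YCR101C, CDA2, ARN2, ENT4, RAD2, TIP1, PMA1, PLB2 and FUI1. BSC1 (YDL037C) stood at -2.15 and -1.96 in BY4741 and at 0.69 and 1.11 in bas2, which is a gap of 2.65. CDA2 (YLR308W), a chitin deacetylase of the spore wall, stood at -0.31 and -0.10 against 1.48 and 2.09. TIP1 (YBR067C), a cell wall mannoprotein, stood at -0.34 and 0.47 against 2.08 and 1.80, a difference of 1.87 ± 0.48. PMA1 (YGL008C), the plasma membrane proton pump, stood at -2.01 and -0.22 against 1.41 and 0.99. YCR101C stood at -3.78 and -2.46 in BY4741 but at -0.68 and 3.74 in bas2. Its bas2 arrays were thus further apart than the nearer arrays of the strains, whose gap was 1.78.

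Lower in bas2 were ARO10, HAP3, PRX1, MRPL50, MAM33, CIR1, DCS2, COX5B, SPS4 and CHZ1. ARO10 (YDR380W), the decarboxylase of aromatic amino acid breakdown, stood at 1.43 and 1.62 in BY4741 and at -0.75 and -1.76 in bas2. Its gap of 2.18 was the widest on this side, and its difference was -2.78 ± 0.60 (limma adjusted p = 0.853). HAP3 (YBL021C), a subunit of the Hap complex that activates respiratory genes, stood at 1.52 and 1.87 against 0.03 and -0.53, a difference of -1.94 ± 0.53. PRX1 (YBL064C), the mitochondrial peroxiredoxin, stood at 0.11 and -0.12 against -1.59 and -1.54. MAM33 (YIL070C), a mitochondrial matrix protein, stood at 0.18 on both BY4741 arrays and at -1.13 and -1.33 in bas2. COX5B (YIL111W), a cytochrome oxidase subunit made at low oxygen, stood at 0.85 and -0.71 against -2.37 and -1.92. The products of PRX1, MRPL50, MAM33, CIR1 and COX5B are mitochondrial, but the share of such products over all genes was not counted.

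**Figure D4:**
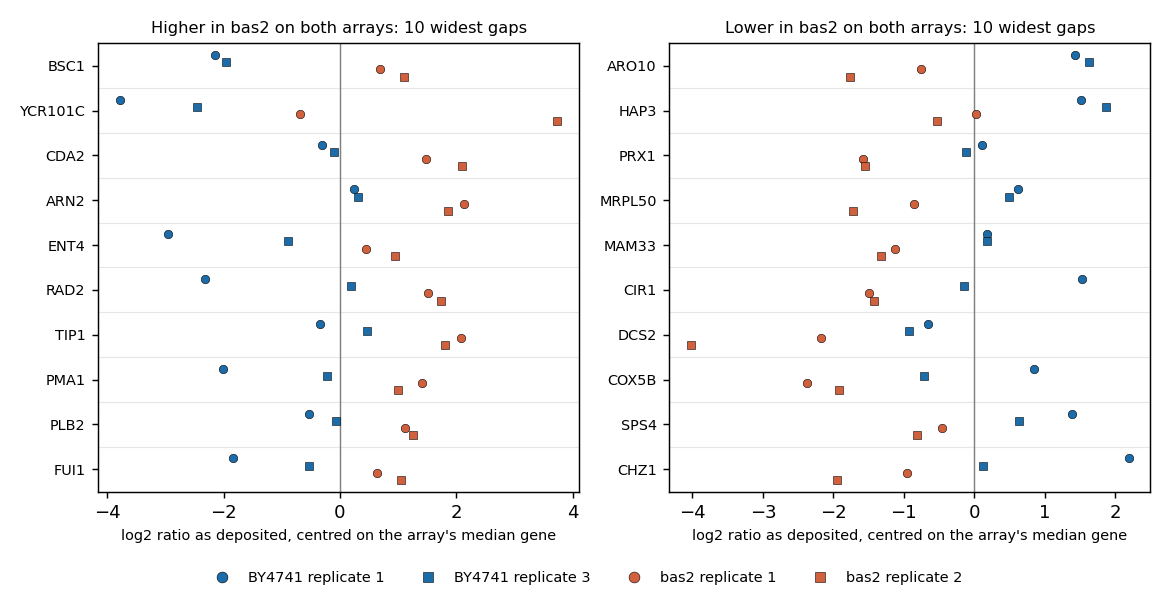
Centred log2 ratio (horizontal axis) on each of the 4 arrays of the 10 genes with the widest gap between strains in each direction, among genes with at least 2 spots on every array; BY4741 is blue and bas2 orange. Every gene shown has separated strains because it was picked for that, from BSC1 (gap 2.65) to FUI1 (1.17) on the left and from ARO10 to CHZ1 on the right.

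Some of the strongest ratios of BY4741 were seen again on both bas2 arrays. Of genes with 4 values, 32 stood at -1 or lower on both BY4741 arrays, and 9 of them did so on both bas2 arrays: GCV3, SHM2, SNZ1, ADE1, ADE8, FLO9, BDH1, MCH4 and CTF13. Over all 4874 genes, 65 stood at -1 or lower on both bas2 arrays and 59 at 1 or higher. SNZ1 (YMR096W), whose product makes vitamin B6, was at -4.35 and -3.69 in BY4741 and at -3.23 and -4.04 in bas2. Of the 32 genes, 22 stood at -1 or lower on bas2 replicate 1 and 11 on replicate 2. Only BSC1 among the 32 was positive on both bas2 arrays, and 15 had 1 positive and 1 negative bas2 value. On the opposite side, 19 genes stood at 1 or higher on both BY4741 arrays and 4 did so on both bas2 arrays (FIT2, TIS11, IZH4 and YGL039W), while 4 of the 19 did so on replicate 1 and 10 on replicate 2. Genes chosen for extreme values on 1 pair of arrays tend to be less extreme on any other arrays, so these counts are a description without a test. The share of all genes past -1 or 1 on each single bas2 array was not counted. The SD over genes was 0.59 and 1.22 on bas2 replicates 1 and 2, so the counts on single arrays do not compare these arrays.

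**Figure D5:**
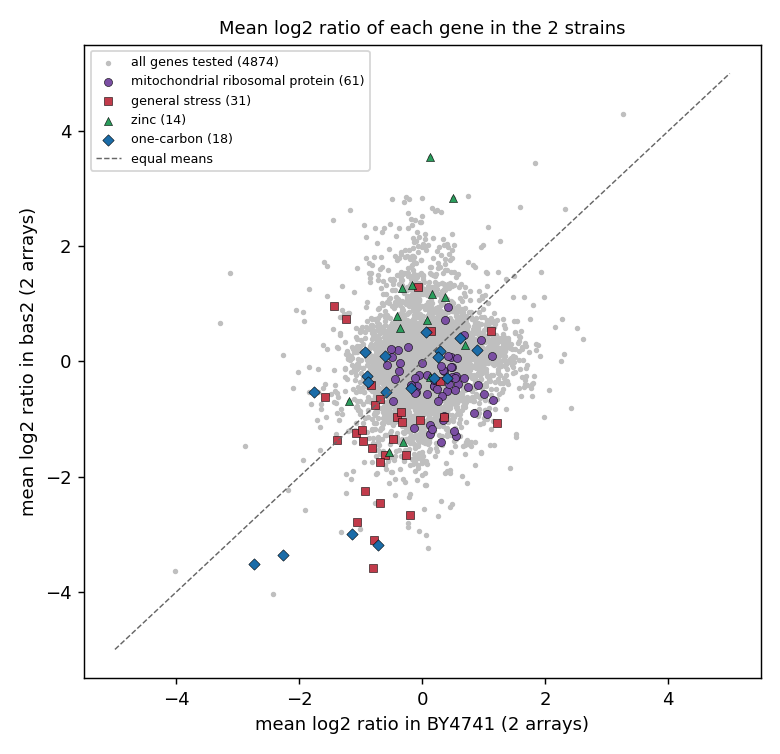
Mean centred log2 ratio in BY4741 (horizontal axis, 2 arrays) against that in bas2 (vertical axis, 2 arrays) for the 4874 genes tested, with 4 gene lists in colour and the dashed line marking equal means. GCV3 and SHM2 are the one-carbon symbols furthest to the lower left, low in both strains, and most stress and mitochondrial ribosomal protein genes lie below the line.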

How the data were processed

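The authors deposited log2 ratios of the 2 channels of each spotted array; per the labels, scanning used a GenePix 4000B instrument. The sources used here do not give dyes, ratio direction, background handling, spot filters or a normalization. Of 12800 spots, 11138 carried 1 gene symbol, 0 several and 1662 none; 11128 were matched by gene identifier to RefSeq names. Spots were averaged per gene and each array was centred on its median over genes. CHA1, GIT1, GUA1, PHO11 and ZAP1 were among the genes with a single spot with a value on at least 1 array.

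Strain means were fitted with limma 3.58.1 in R 4.3.3 (lmFit, eBayes, two-sided) over all 8 arrays; errors are standard errors. A gene had up to 3 residual degrees of freedom, and the moderated variance added 2.63 around an SD of 0.559. P-values measure only the spread between these arrays, which may be technical. The fit was also run on simulated data with the same spread for every gene and array. The differences added there were larger than most described here, so that run cannot speak to smaller ones.

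Members and lists were chosen with earlier results of these data known. Named genes are all measured members of the one-carbon, purine, guanine, Bas target, histidine, phosphate, serine and marker lists, the 10 widest gaps each way, and up to 4 members and the exceptions of other lists. Genes at -1 or lower, or 1 or higher, on both BY4741 arrays, single genes of a list that differed between arrays, and the respiratory and pyrimidine lists were chosen after values were seen. ADE5,7 had no spot named here. Alternatives were other centring and scaling, spot filters, arrays left out, the title ending as a term and turned signs.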

Additional observations from a re-analysis of the deposited data

Results flagged for a closer look

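Among the 20 genes with the widest gaps, 11 had both BY4741 arrays on one side of 0 and both bas2 arrays on the other. Several pointed from negative in BY4741 to positive in bas2, with differences of 2.95 for BSC1, 2.63 for ENT4, 2.32 for PMA1, 2.04 for FUI1, 2.00 for CDA2 and 1.49 for PLB2. The others pointed the opposite way, with differences of -2.78 for ARO10, -2.61 for CHZ1, -1.84 for MRPL50, -1.65 for SPS4 and -1.41 for MAM33. These genes were picked for separated arrays, and the difference itself did not pass limma's test for any of them (adjusted p = 0.853 each). FUI1 (YBL042C), the uridine permease, stood at -1.84 and -0.53 in BY4741 and at 0.64 and 1.06 in bas2. CHZ1 (YER030W), a histone chaperone, stood at 2.19 and 0.13 in BY4741 and at -0.95 and -1.94 in bas2.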

How the results depend on the processing

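No gene passed limma's test under any of the 11 alternatives, with a smallest adjusted p of 0.071, when the sign of both bas2 arrays was turned. Genes at least 1 apart numbered 25 higher and 27 lower in bas2. Without centring they numbered 6 higher and 40 lower, and median differences became -0.74 for one-carbon, -0.14 for purine, 0.64 for guanine, -0.25 for phosphate, 0.12 for iron, 0.29 for zinc, -1.18 for stress, -0.89 for ribosomal protein genes of the cytosol and -1.14 for those of mitochondria. With a common median absolute deviation they numbered 59 and 109, with medians of 0.64 for phosphate, 0.034 for iron and 1.07 for zinc. Genes with 2 spots on each array gave 20 higher and 14 lower. With the sign of both bas2 arrays turned, 120 were higher and 81 lower, and medians were 4.15 for glycine cleavage, 0.71 for one-carbon, 1.92 for purine, -1.30 for guanine, 0.18 for phosphate, -1.31 for iron, -0.88 for zinc, 1.82 for stress, -1.02 for ribosomal protein genes of the cytosol and 0.14 for those of mitochondria. Leaving out 1 array at a time gave 38 to 411 higher and 41 to 646 lower, since a gap between fewer arrays is wider by construction. The medians then ranged from -0.35 to -0.04 for one-carbon, 0.084 to 0.759 for purine, 0.21 to 0.99 for iron, 0.71 to 1.18 for zinc, -0.75 to -0.43 for stress and -0.86 to -0.40 for mitochondrial ribosomal protein genes. Of 213 named genes, the sign of the difference changed for 40 without centring, for 14 with a common median absolute deviation and for 5 to 16 when 1 array was left out. Apart from these constructions, the cause was not tested. No paired analysis was possible because BY4741 and bas2 share only replicate number 1. The arrays could be grouped by title ending instead, and with that ending as a term in the fit 0 genes passed (smallest adjusted p 0.853). Among genes named in the text as separated between strains, those whose sign turned were ADE1, FOL1, HIS1, HIS3, HIS7, MRP2, MRPL19 and PHO86 without centring and GCV3 with a common median absolute deviation. Signal over background was not used here, so limits set by dim spots are unknown.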

Other observations

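Respiratory chain and ATP synthase genes stood lower in bas2, a list drawn up after HAP3 and COX5B had been seen among the widest gaps. Of 31 genes with 4 values, both bas2 arrays were lower for 16 (51.6%) and higher for 0, against 20.8% and 19.8% of all genes. The 16 include COX5B, which had been seen before the list was drawn up. Their median stood at 0.42 and -0.40 on the BY4741 arrays and at -0.98 and -0.50 on the bas2 arrays. The median difference was -0.78, with -0.61 without bas2 replicate 1 and -0.37 without BY4741 replicate 1. QCR7 (YDR529C), a subunit of complex III, stood at 2.36 and -0.65 in BY4741 and at -1.51 and -1.31 in bas2. ATP3 (YBR039W), the gamma subunit of ATP synthase, stood at 1.24 and -0.11 against -1.07 and -0.51. In the pair with "ss" titles the list's median difference was only -0.07, and in the "steady" pair it was -1.37, so the order came mostly from 1 pair. None of the genes passed limma's test.

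Pyrimidine synthesis and uptake genes stood higher in bas2, also a list drawn up after values were seen, and without URA3. Of 11 genes with 4 values, both bas2 arrays were higher for 7 (63.6%) and lower for 0, against 19.8% and 20.8% of all genes. The 7 include FUI1, already listed among the widest gaps. URA4 (YLR420W), the dihydroorotase, stood at -0.68 and 0.23 in BY4741 and at 0.82 and 1.11 in bas2. URA8 (YJR103W), a CTP synthase, stood at -0.81 and -0.27 against 0.31 and 0.55. The median difference was 0.44, with 0.62 without bas2 replicate 1 and -0.12 without centring. URA10 and FUR4 went the other way on bas2 replicate 2 alone, at -2.58 and -2.40.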
